A study of Mus musculus with 9 samples.

Results

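The genes described here are 10 transcription factors of fibroblasts and mesenchyme: Snai1, Snai2, Twist1, Twist2, Zeb1, Zeb2, Prrx1, Tcf21, Meox1 and Osr1. They were chosen by name, as every probe set annotated to 1 of these symbols alone, which gave 24 probe sets among 45101 in the table and 10 genes among 18193. The study's title concerns direct reprogramming of mouse fibroblasts to cardiomyocytes by chemicals. Arrays of 3 groups of mouse cells were compared, with 3 arrays in each. The first group was mouse embryonic fibroblasts (MEF) from C57BL/6 embryos at embryonic day 13.5. The second was chemical-induced cardiomyocyte-like cells (CiCM), made from MEF with 10 µM CHIR99021 (a GSK3 inhibitor), 10 µM RepSox (a TGF-beta receptor inhibitor), 50 µM Forskolin (which raises cAMP), 0.5 mM VPA (a histone deacetylase inhibitor), 5 µM Parnate (an inhibitor of monoamine oxidases and LSD1) and 1 µM TTNPB (a retinoic acid receptor agonist). Beating clusters of CiCM were picked on day 24, so a CiCM array holds every cell of the picked clusters. The third was cardiomyocytes (CM) taken from mouse hearts, for which no strain or age is given in the sources used here. No array holds cells given only part of the cocktail or cells grown for as long without it, so the cocktail, the time in culture and the picking cannot be told apart.

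Snail, Twist and Zeb proteins are repressors and activators that hold mesenchymal cells apart from epithelium. Snail and Zeb proteins are zinc finger factors that bind E-boxes, above all the letters CACCTG, and silence epithelial genes such as Cdh1. Twist1 and Twist2 are basic helix-loop-helix (bHLH) proteins that pair with E proteins and restrain muscle differentiation. Prrx1 is a homeobox factor of limb and trunk mesenchyme. Tcf21 is a bHLH factor of the epicardium and of the fibroblasts that come from it, Meox1 is a homeobox factor of somites, and Osr1 is a zinc finger factor of lateral plate mesoderm and its connective tissue. TGF-beta signalling is a known inducer of Snail and Zeb genes.

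The upstream sequence of the Snail gene with an entry in the promoter table is shown because it carries the E-box its own protein binds, and those of both Twist genes because their differences between CiCM and MEF had opposite signs. Of the 10 members 6 were matched by symbol in RefSeq's promoter sequences (build GRCm38.p6); Snai2, Zeb1, Meox1 and Osr1 had no entry. Each line gives the 250 bases before the gene's start, 5′ to 3′ on the gene's strand, with every CANNTG in capitals. Snai1 lies at chr2:167537945-167538194, Twist1 at chr12:33957421-33957670 and Twist2 at chr1:91801211-91801460, all on the plus strand.
Snai1: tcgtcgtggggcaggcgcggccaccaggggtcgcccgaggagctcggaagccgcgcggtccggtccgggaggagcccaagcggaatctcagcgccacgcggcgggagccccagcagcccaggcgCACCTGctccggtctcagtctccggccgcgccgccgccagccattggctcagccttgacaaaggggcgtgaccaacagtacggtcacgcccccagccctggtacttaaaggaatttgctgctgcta
Twist1: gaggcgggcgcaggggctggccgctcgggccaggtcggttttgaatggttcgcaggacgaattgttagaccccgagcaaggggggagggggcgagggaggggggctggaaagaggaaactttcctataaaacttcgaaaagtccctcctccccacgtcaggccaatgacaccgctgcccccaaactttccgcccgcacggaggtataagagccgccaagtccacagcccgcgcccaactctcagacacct
Twist2: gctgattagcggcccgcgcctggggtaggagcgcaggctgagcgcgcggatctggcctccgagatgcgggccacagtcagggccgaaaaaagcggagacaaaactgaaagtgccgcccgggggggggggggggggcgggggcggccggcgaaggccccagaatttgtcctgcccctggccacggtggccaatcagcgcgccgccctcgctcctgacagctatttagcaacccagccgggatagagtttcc
The Snai1 window held 1 CACCTG, starting 126 bases before the gene's start, and neither Twist window held a CANNTG. Searched on both strands, CACCTG (every instance of which is also a CANNTG) was in 17.2% and CANNTG in 66.2% of 32851 promoter windows of the same length. These matches describe letters and show no binding.

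Values are log2 signals, so a difference of 1 is a doubling. The median of the table, 6.58, served as a line below which signals are noisy, and a gene was tested if its mean reached it in at least 1 group. All 10 members were tested, but Tcf21 reached the line only in CM, so it had to differ between CM and the other groups. Calls needed both a difference of at least 1 and an adjusted p under 0.05 (limma, Benjamini-Hochberg over 12559 genes). The SE of a difference pools the spread of all 3 groups, so it also carries that of the group not compared. Array medians ran from 6.37 to 6.53 in MEF, 6.41 to 6.53 in CiCM and 6.75 to 6.85 in CM. CM replicate 1 stood apart in the atrial genes Sln (14.95 against 8.14 and 2.97) and Myl7 (15.05 against 9.25 and 5.98) and in the fat cell genes Adipoq (13.50 against 6.21 and 5.09), Cidec (10.70 against 1.81 and 0) and Lep (6.48 against 2.03 and 2.25). Member counts and gene list counts that involve CM are also given without it where they differ; probe set counts were not recomputed. The labels call the samples biological replicates without naming embryos, cultures or hearts, and 3 arrays a group limit the precision.

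**Figure D1:**
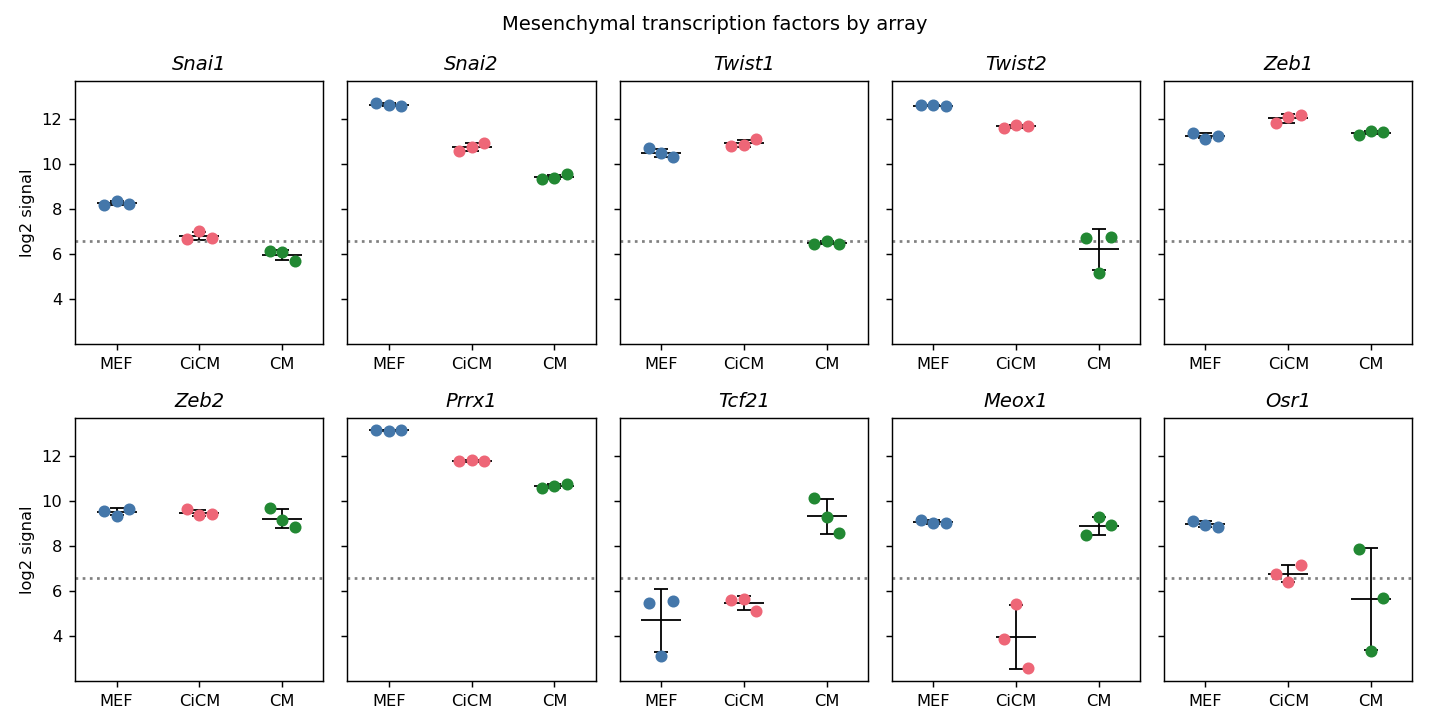
Log2 signal (vertical axis) of each member's brightest probe set on the 9 arrays, by group; points are arrays, the black bar is the group mean with its SD, and the dotted line is the table median of 6.58. Snai1, Snai2 and Prrx1 step down from MEF to CiCM to CM, Twist1 and Twist2 are low only in CM, Meox1 is low only in CiCM, and Tcf21 is high only in CM.

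CiCM kept signal for most of the fibroblast factors but at lower levels for some. Against MEF, 4 of the 10 members fell in CiCM, namely Snai1, Snai2, Prrx1 and Meox1, and none rose. Over all tested genes 12.2% were called lower and 11.6% higher in that comparison, 23.8% in all. Without overlap between arrays, 6 members were lower and 2 higher, against 36.4% and 32.1% of all genes, or 68.5% in either direction. The median difference of the members was -1.14, beside -0.03 for all genes. Fewer cells of a type and less RNA per cell cannot be told apart in such bulk samples. Dropping CM replicate 1 from the shared fit gave 5 lower members, with Osr1 added.

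CM differed from MEF in 7 members. Snai1, Snai2, Twist1, Twist2, Prrx1 and Osr1 fell and Tcf21 rose, while Zeb1, Zeb2 and Meox1 were not called. Over all genes 21.8% were called lower and 22.1% higher, 43.9% in all. The same 7 members had no overlap between arrays, as did 38.7% of all genes on the lower and 36.5% on the higher side, 75.2% in all. The members' median difference was -2.38, beside -0.03 for all genes, and the counts were the same without CM replicate 1. Between CiCM and CM, Snai2, Twist1, Twist2 and Prrx1 were higher in CiCM, and Tcf21 and Meox1 were lower. Of all genes 16.5% were called higher and 19% lower there, 35.5% in all. Arrays did not overlap for 6 members that were higher and 2 that were lower, against 33.5% and 34.4% of all genes, or 67.9% in either direction. The members' median was 0.98 beside -0.03. Without CM replicate 1 the higher members numbered 5, again through Osr1. These comparisons share arrays, so each is given by its own values.

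**Figure D2:**
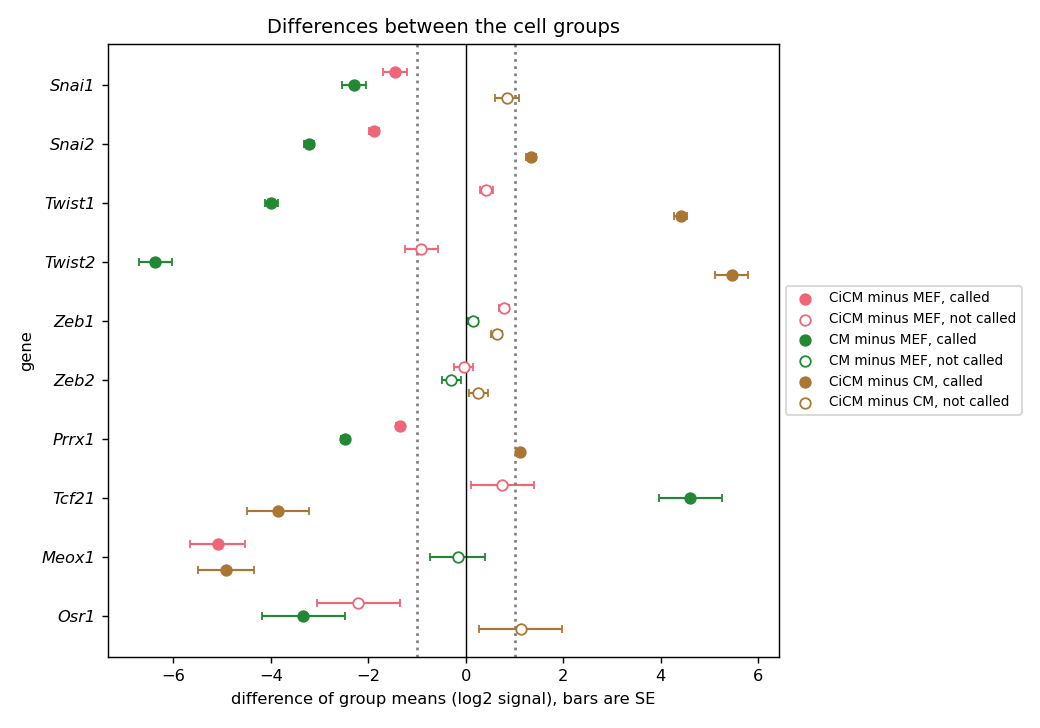
Difference of group means in log2 signal (horizontal axis) with its SE for each member and comparison; filled points were called and open points were not, and dotted lines mark the minimum difference of 1. Twist2 has the lowest value for CM minus MEF (-6.37), Meox1 the lowest for CiCM minus MEF (-5.09), and Zeb2 has differences no farther than 0.30 from 0.

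The Snail repressors fell in CiCM and in CM. Snai2 (Entrez Gene 20583; also called Slug), a repressor of cadherin genes that also marks migrating mesenchyme, had log2 signals of 12.71, 12.62 and 12.60 in MEF, 10.60, 10.78 and 10.92 in CiCM and 9.35, 9.38 and 9.55 in CM. No array of a group overlapped another group, and CiCM lay between MEF and CM. The difference was -1.88 ± 0.10 for CiCM minus MEF (SE; limma adjusted p = 1.92e-07) and -3.21 ± 0.10 for CM minus MEF (limma adjusted p = 1.43e-09). CiCM exceeded CM by 1.34 ± 0.10 (limma adjusted p = 1.28e-06). A second probe set of Snai2 gave -1.49, -3.45 and 1.96 for the same comparisons, all called.

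Snai1 (Entrez Gene 20613; Snail), which can silence Cdh1 at the onset of an epithelial to mesenchymal change, was measured by 1 probe set. Its signals were 8.20, 8.35 and 8.25 in MEF, 6.70, 7.03 and 6.73 in CiCM and 6.13, 6.09 and 5.71 in CM. The groups did not overlap, although the CM values lay under the line where signals are noisy. Snai1 differed by -1.45 ± 0.24 in CiCM (SE; limma adjusted p = 5.72e-04) and by -2.29 ± 0.24 in CM (limma adjusted p = 9.15e-06), each against MEF. The step from CM up to CiCM, 0.84 ± 0.24, missed the minimum difference (limma adjusted p = 0.0108), and it was called with quantile normalization (1.18) or arrays centred on their medians (1.15). With the largest constant tried added to the linear signals, the CiCM minus MEF difference was -0.85, under the minimum.

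Neither Twist1 nor Twist2 was called between CiCM and MEF, and both were lower in CM. Whether they differ from the Snail genes in this was not tested. Twist1 (Entrez Gene 22160), which binds and inhibits the myogenic factor MyoD, had signals of 10.70, 10.48 and 10.32 in MEF, 10.79, 10.87 and 11.10 in CiCM and 6.46, 6.58 and 6.47 in CM. Every CiCM array was above every MEF array, by a mean of 0.42 ± 0.13 (SE; limma adjusted p = 0.0232), which is under the minimum difference. Against CM, CiCM was higher by 4.42 ± 0.13 (limma adjusted p = 3.14e-09). CM minus MEF was -4.00 ± 0.13 (limma adjusted p = 2.00e-09). In the same CiCM arrays Myod1 stood at a mean of 10.13 and Myog at 12.59, against 4.23 and 4.03 in MEF, and 8 of 10 skeletal muscle markers were past the line, with a sum of linear signals of 74523 to 83779 against at most 174 in MEF and 341 to 385 in CM. Twist1 signal and myogenic factor signal were thus present in the same samples, which does not place them in the same cells, and the part of skeletal muscle cells in the Twist1 signal was not tested.

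Twist2 (Entrez Gene 13345; Dermo1), its close relative of dermal and other connective tissue, read 12.61, 12.61 and 12.57 in MEF, 11.62, 11.74 and 11.70 in CiCM and 6.74, 5.17 and 6.76 in CM. All CiCM arrays lay below all MEF arrays, but the difference of -0.91 ± 0.34 (SE; limma adjusted p = 0.0440) did not reach 1. It passed at -1.14 when arrays were levelled on hybridisation controls. CM minus MEF was -6.37 ± 0.34 (limma adjusted p = 4.98e-08), and CiCM minus CM was 5.46 ± 0.34 (limma adjusted p = 2.89e-07). The CM signals straddled the line, with replicate 2 lowest, and with 32 added to the linear signals these differences were -5.83 and 4.92. In CiCM, the small differences from MEF thus had opposite signs in the Twist pair, under each of the 23 alternatives tried.

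The Zeb repressors were called in no comparison. Zeb1 (Entrez Gene 21417), which represses Cdh1 and E-box genes of muscle, read 11.37, 11.14 and 11.26 in MEF, 11.82, 12.10 and 12.19 in CiCM and 11.31, 11.45 and 11.44 in CM. CiCM arrays were above those of both other groups, by 0.78 ± 0.11 over MEF (SE; limma adjusted p = 1.68e-04) and 0.64 ± 0.11 over CM (limma adjusted p = 4.59e-04), both under the minimum difference. MEF and CM overlapped, with a difference of 0.15 ± 0.11 (limma adjusted p = 0.251). Of the other 3 probe sets of Zeb1, those past the line gave CiCM minus MEF differences of 0.93 and 0.45 and the last was under the line.

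Zeb2 (Entrez Gene 24136; Sip1), a Smad-interacting repressor also expressed in macrophages and endothelium, read 9.55, 9.34 and 9.65 in MEF, 9.62, 9.36 and 9.43 in CiCM and 9.67, 9.13 and 8.84 in CM. All groups overlapped, and the differences were -0.05 ± 0.19 for CiCM minus MEF (SE; limma adjusted p = 0.865) and -0.30 ± 0.19 for CM minus MEF (limma adjusted p = 0.189). Its probe sets did not speak with 1 voice. For CM minus MEF the 4 past the line gave -0.30, -0.87, -0.43 and 0.50, and for CiCM minus MEF -0.05, 0.03, -0.72 and -0.13. Which transcripts each probe set reads was not analysed here. No probe set of Zeb1 or Zeb2 past the line was called in any comparison, although the brightest Zeb2 probe set was called for CM minus MEF (-1.10) when arrays were levelled on hybridisation controls.

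Prrx1 (Entrez Gene 18933), which marks mesenchymal progenitors of limb and skin, followed the Snail genes. It read 13.15, 13.12 and 13.14 in MEF, 11.75, 11.83 and 11.76 in CiCM and 10.56, 10.68 and 10.74 in CM. The groups were separated by far more than their spread. The differences were -1.36 ± 0.08 for CiCM minus MEF (SE; limma adjusted p = 2.21e-07), -2.48 ± 0.08 for CM minus MEF (limma adjusted p = 1.10e-09) and 1.12 ± 0.08 for CiCM minus CM (limma adjusted p = 5.53e-07). Prrx1 had 6 probe sets, of which 5 were past the line. All 5 fell in CiCM against MEF, by -1.07 to -1.81, and in CM against MEF, by -2.15 to -3.99. Between CiCM and CM 4 of the 5 were called, with differences up to 2.51, and the fifth was at 0.68.

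**Figure D3:**
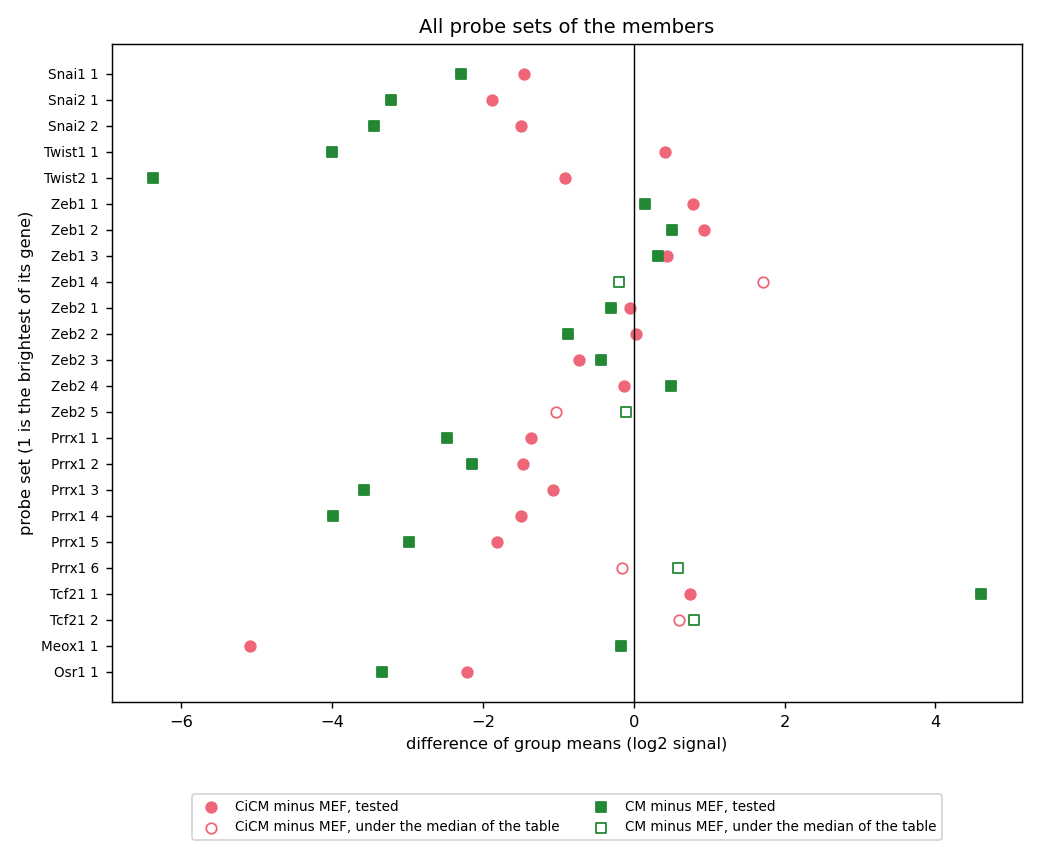
Difference from MEF in log2 signal (horizontal axis) for each of the 24 probe sets of the members; circles are CiCM minus MEF, squares are CM minus MEF, and open symbols are probe sets under the table median in every group. The probe sets of Prrx1 and Snai2 past the line lie left of 0, while those of Zeb2 fall on both sides of it.

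Over the probe sets the counts followed the genes. Of 20 member probe sets past the line, 9 were called lower in CiCM than in MEF, where 12.2% of all 26547 probe sets were, and 0 were called higher, against 11.8%. Those 9 belonged to Snai1, Snai2, Prrx1 and Meox1. For CM minus MEF 11 were lower and 1 was higher, against 21.6% and 24% of all. For CiCM minus CM 8 were higher and 2 lower, against 15.8% and 20.4%. Prrx1 alone supplied 5 of the lower probe sets in each comparison with MEF, and probe sets of 1 gene are not independent.

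Tcf21, Meox1 and Osr1, factors with a narrower place in development, each had a pattern of its own. Tcf21 (Entrez Gene 21412; epicardin) read 5.49, 3.10 and 5.55 in MEF, 5.62, 5.64 and 5.12 in CiCM and 10.11, 9.28 and 8.57 in CM. Its signal stood above the line on CM arrays alone. CM exceeded MEF by 4.61 ± 0.65 (SE; limma adjusted p = 8.26e-05), and CiCM minus CM was -3.86 ± 0.65 (limma adjusted p = 3.93e-04). With 32 added the differences were 3.43 and -3.14. A second probe set, under the line in mean in each group, gave 0.79 for CM minus MEF and was not tested. CiCM and MEF overlapped, with a difference of 0.75 ± 0.65 (limma adjusted p = 0.355).

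The CM arrays also carried markers of cells other than cardiomyocytes, which are given here because Tcf21 is known from heart fibroblasts. All 8 fibroblast markers had CM means past the line. Of these, 6 were called lower in CM than in MEF, among them Col1a1 (-4.74), Thy1 (-4.19) and Col1a2 (-2.43). The other 2, Dcn and Lum, were higher by 1.92 and 3.08, where 21.8% of all genes were called lower and 22.1% higher. The summed linear signal of the 8 was 24157 to 38495 in CM, 58527 to 62078 in MEF and 67204 to 72043 in CiCM. All 8 endothelial markers were past the line in CM, with a sum of 14379 to 16287, against 489 to 733 in MEF and 378 to 495 in CiCM. No marker of either list was at 0 on a CM array. Smooth muscle and pericyte markers summed to 37243 to 48545 in CM and 35334 to 35427 in MEF, and 7 of 8 had CM means past the line. Against MEF 3 were called higher in CM, namely Abcc9 (5.59), Rgs5 (4.84) and Kcnj8 (3.33). Another 3 were lower, namely Cnn1 (-6.82), Acta2 (-2.17) and Cspg4 (-1.01). Adipocyte markers summed to 38173 to 46490 in CM and 2049 to 2249 in MEF. In CM, 3 of 5 had means past the line, and Cidec was at 0 on CM replicate 3. The CM sum was led by Fabp4, with a mean log2 signal of 15.15 in CM, against 8.36 for Pparg and 8.26 for Adipoq. Fabp4 and Pparg were past the line on every CM array. Adipoq and Cidec passed it on CM replicate 1 alone, and Lep on no CM array. The sum by itself thus does not show fat cells on each CM array. The part of such cells in the CM signals of Tcf21, Prrx1, Snai2, Zeb1 and Zeb2 was not tested.

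**Figure D4:**
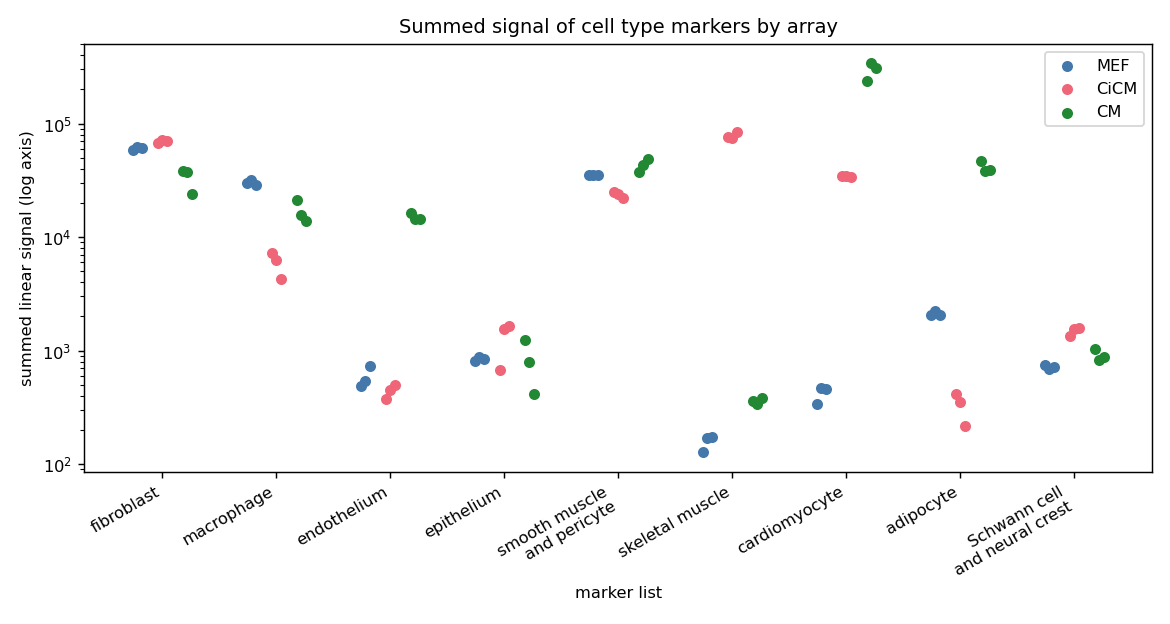
Summed linear signal (vertical log axis) of 9 lists of cell type markers on each array, coloured by group. The sums of macrophage, adipocyte, and smooth muscle and pericyte markers are lowest in CiCM. Those of endothelial markers are high only in CM, and those of skeletal muscle markers only in CiCM.

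Meox1 (Entrez Gene 17285), a somite factor also active in heart fibroblasts, had the largest difference from MEF among the members in CiCM. It read 9.15, 9.03 and 9.01 in MEF, 3.88, 5.44 and 2.59 in CiCM and 8.47, 9.27 and 8.94 in CM. All CiCM arrays lay under the line and all others above it. CiCM minus MEF was -5.09 ± 0.57 (SE; limma adjusted p = 3.44e-05) and CiCM minus CM was -4.92 ± 0.57 (limma adjusted p = 2.57e-05). With 32 added, which damps noise at the low end, these were -3.47 and -3.31. MEF and CM overlapped, with a difference of -0.17 ± 0.57 (limma adjusted p = 0.800). The SD of Meox1 was 0.08 in MEF, 0.40 in CM and 1.43 in CiCM, and the SE pools them. The sums of macrophage markers were also lowest in CiCM, at 4294 to 7252, against 28528 to 31711 in MEF and 13882 to 21229 in CM. All 9 were called lower in CiCM than in MEF, where 12.2% of all genes were, and none was at 0 on any array. For CM against MEF 3 of the 9 were called lower and 0 higher, where 21.8% and 22.1% of all genes were. Csf1r had a higher mean in CM (12.31 against 11.48 in MEF). Adipocyte sums (218 to 413) and smooth muscle and pericyte sums (22051 to 24882) were lowest in CiCM as well. The part of macrophages, adipocytes, smooth muscle cells or pericytes in the Meox1 result was not tested.

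Osr1 (Entrez Gene 23967) read 9.11, 8.94 and 8.86 in MEF, 6.76, 6.39 and 7.13 in CiCM and 7.88, 3.34 and 5.67 in CM. MEF arrays were above all others, and CM replicate 1 was above every CiCM array while CM replicates 2 and 3 were below. CM minus MEF was -3.34 ± 0.85 (SE; limma adjusted p = 0.00503), or -2.45 with 32 added. CiCM minus MEF was -2.21 ± 0.85 and just missed the threshold (limma adjusted p = 0.0507). Over 23 alternatives its adjusted p ran from 1.13e-05 to 0.131 and it was called in 11. Leaving out CM replicate 1 or CM replicate 2 called it (limma adjusted p = 0.00336 and 0.00395), and a fit of MEF and CiCM arrays alone gave 1.13e-05. CiCM minus CM was 1.13 ± 0.85 (limma adjusted p = 0.266). It was 2.25 without CM replicate 1 (limma adjusted p = 0.00485, within a range of 0.00485 to 0.981 over the alternatives).

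Genes with the most similar course over the 9 arrays were found by the root mean square difference of log2 values, after each gene was centred on its own mean. Nearest to Twist1 among 12549 other tested genes were Mmp14 (0.14), a membrane-bound matrix protease, Nek6 (0.17) and the matrix protein gene Thbs2 (0.26). Twist2 was nearest to Ccn4 (0.31), Steap1 (0.34) and Ptx3 (0.40). For Snai1 they were Akap12 (0.11), Slc2a1 (0.11) and Exo5 (0.11), for Prrx1 P4ha2 (0.11), Exo5 (0.12) and Snhg5 (0.12), and for Snai2 Limd2, Cks1b and Lurap1l (0.19 each). Meox1 was nearest to Cyth4 (0.44), Klk8 (0.55) and Cmklr1 (0.56), and Tcf21 to Myct1 (0.50), G0s2 (0.50) and Gpr160 (0.57). The closest course to Osr1 was that of Pou3f3 (0.48), followed by Sfmbt2 (0.58) and Alcam (0.65). Among the members themselves Snai1 and Prrx1 were the closest pair (0.20), Snai2 and Prrx1 came next (0.32), and Twist1 and Twist2 were 1.08 apart.

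Of 30 other mesenchymal factors tested, 7 were lower in CiCM than in MEF and 5 were higher, with a median difference of -0.21. Over all genes 12.2% were called lower and 11.6% higher. Lower were Foxc2 (-3.19), a forkhead factor of paraxial mesoderm, the Meox1 relative Meox2 (-2.79), Foxs1 (-2.62) and the AP-1 factor Fosl1 (-2.50). Foxs1 and Lhx9, both counted among the lower genes, reached the line only in MEF, so a call against MEF could only be lower. Higher were Msx1 (2.68), a homeobox factor of progenitors, the Snail relative Snai3 (2.25), the tendon factor Scx (2.11), which reached the line only in CiCM, and Nr2f1 (1.80). In CM 14 of 30 fell against MEF (18 without CM replicate 1) and 4 rose, where 21.8% and 22.1% of all genes did, with a median of -1.07, led by Foxd1 (-6.73), Fosl1 (-4.98), the Prrx1 relative Prrx2 (-4.87) and Runx1 (-4.51). Prrx2, unlike Prrx1, was not called between CiCM and MEF (0.30, limma adjusted p = 0.535). Meox2 rose in CM (2.72), where Meox1 was not called.

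The list of signals upstream of these factors holds inducers and also the TGF-beta inhibitors Smad7, Ski and Skil. Against MEF, 6 of 25 tested genes were lower in CiCM and 1 was higher, with a median of -0.70, and 18 were not called. Of all genes 12.2% were lower and 11.6% higher. Hmga2, a chromatin protein that acts upstream of Snail and Twist genes, differed by -5.81, the growth factor gene Bmp4 by -3.36, the Notch ligand Jag1 by -3.10 and the Smad inhibitor Smad7 by -1.38. Tgfbr2, the type II TGF-beta receptor, was higher by 1.13, a call lost when its probe sets were averaged or arrays were levelled on hybridisation controls. In CM 16 were lower and 1 was higher, against 21.8% and 22.1% of all genes, with a median of -1.28. The higher one, Notch1 (1.01), lay at the minimum difference and lost its call in 10 alternatives, among them 32 added, median centring and leaving out MEF replicate 1, MEF replicate 2, CM replicate 1 or CM replicate 3.

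**Figure D5:**
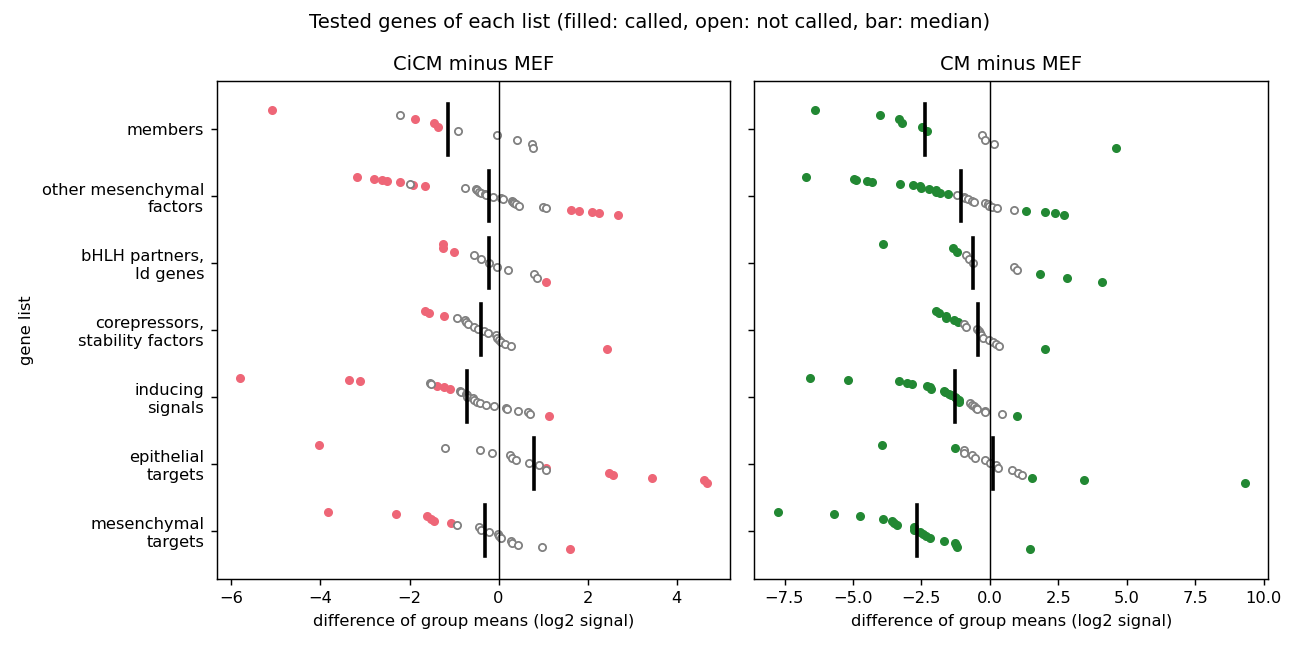
Difference from MEF in log2 signal (horizontal axes, with different ranges) of the tested genes of 7 lists, for CiCM at left and CM at right; filled points were called, open points were not, and bars are medians. The median of the mesenchymal targets is -0.30 in CiCM, where 6 of 18 were called lower and 1 higher, and -2.66 in CM, where 17 were called lower. Of all genes 12.2% were called lower and 11.6% higher in CiCM, and 21.8% lower in CM.

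Genes that Snail and Zeb proteins repress were read through a list of epithelial genes. Of 32 with a probe set, 16 reached the line. In CiCM 6 of these rose against MEF and 1 fell, where 11.6% and 12.2% of all genes did. The first count ran from 1 to 8 over the alternatives. Without CM replicate 1 the higher genes numbered 7 and the lower genes 2. A gene silent in MEF and CM entered only if CiCM carried it, so the count is no support for a direction. Grhl1, an epithelial grainyhead factor, was higher by 4.69, the mucin gene Muc1 by 4.61, Dsp (desmoplakin) by 3.45 and Cldn4 by 2.58. Cdh1 (E-cadherin), the classic Snail target, read 5.01, 4.50 and 4.96 in MEF, 5.83, 7.84 and 8.25 in CiCM and 6.31, 5.98 and 5.69 in CM. CiCM replicate 1 lay under the line and within the CM range, and CiCM exceeded MEF by 2.48 ± 0.60 (SE; limma adjusted p = 0.00544). Cdh1, Grhl1, Muc1 and Cldn4 reached the line only in CiCM, so a call against MEF could only be higher. Their MEF means were 4.82, 2.63, 2.99 and 5.27, where signals are noisy. Cdh3 (P-cadherin), which reached the line only in MEF, went the other way (-4.03). Epcam, Krt8 and Krt18 were not called, and Esrp1 was under the line in each group. Dsp is also a gene of heart muscle junctions and was higher in CM by 9.31.

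Of the mesenchymal target genes, 17 of 18 were lower in CM than in MEF, where 21.8% of all genes were, with a median of -2.66, and 1, the N-cadherin gene Cdh2 (1.47), was higher. Tnc (-7.75), Cdh11 (-5.68), Col1a1 (-4.74) and Mmp14 (-3.92) had the lowest values. In CiCM 6 of 18 were lower than in MEF, where 12.2% of all genes were, with a median of -0.30, among them Mmp9 (-3.83), Axl (-2.30), Itga5 (-1.60) and Cdh2 (-1.52). Mmp3 was higher by 1.60, a call lost without MEF replicate 2 or 3 or CiCM replicate 2 or 3, with averaged probe sets, hybridisation controls, no filter or no variance trend. Between CiCM and CM, 13 were higher in CiCM and Cdh2 was lower (-3.00), where 16.5% of all genes were called higher and 19% lower.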

How the data were processed

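Total RNA of 9 samples (3 groups of 3) was hybridised to Affymetrix arrays, 1 array each, after biotin labelling, per the labels' protocols. The deposited values are log2 signals made with MAS5, per the submitters' processing notes; the log2 scale was read from the values, whose linear mean without the outer 2% was 500.003 on each array. The genome build and scan batches are not given in the sources used here. Probe set symbols are those of the platform annotation and may be outdated. Each of 18193 genes was represented by its brightest probe set on average, and 12559 with a group mean at or above 6.58 were tested in 1 limma fit of all arrays (limma 3.58.1, R 4.3.3, variance trend, no covariates). Every probe set was also fitted by itself. The method was tested on simulated data. An exact permutation test of 3 against 3 cannot go below p = 0.1, so none was used. Replicate numbers were not used as a pairing in the main fit, and the labels do not say whether they pair samples. The members, lists and tests were chosen with earlier results of these data known. Named were all members and the 3 nearest genes of each called member. From each list up to 4 called genes a direction whose arrays did not overlap were also named. Prrx2, Smad7, Tgfbr2, Epcam, Krt8, Krt18, Esrp1, Kdm1a, Lhx9, Fabp4, Pparg, Csf1r, Myod1 and Myog were named after their values were seen. Alternatives were added constants (1, 32 and a larger one), other filters and scalings, other probe set and variance rules, the replicate block and leaving out each array; applying them to the lists was decided after seeing the data. Figures were drawn with matplotlib 3.10.9.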

Additional observations from a re-analysis of the deposited data

How the results depend on the processing

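Member counts were recomputed under 24 alternatives. Called higher and lower, the counts for CiCM against CM were 3 to 6 and 2 throughout; those for CM against MEF were 1 throughout and 5 to 7; lower members in CiCM against MEF were 4 to 6. Without a minimum difference, 2 members (Twist1 and Zeb1) were higher in CiCM than in MEF, where the main count was 0. Of 30 member differences, 21 kept their side of the threshold in every alternative that gave a value, and no called one reversed. With the largest constant added, the Snai1 call for CiCM against MEF was lost (-0.85), and levelling on hybridisation controls called Zeb1 for CiCM against CM (1.21). Scaling moved all genes together: the median of CM minus MEF shifted by -0.39 with median centring and -0.85 with hybridisation controls, that of CiCM minus CM by 0.33 and 0.60, and that of CiCM minus MEF by -0.24 with the latter. The share of calls that were higher went from 50.4% to 34.6% and 21.4% for CM against MEF, from 46.5% to 62.9% and 75.03% for CiCM against CM, and with hybridisation controls from 48.6% to 35.3% for CiCM against MEF. The Zeb1 difference of CM and MEF, not called, turned to -0.66 there. Deviations of samples with the same replicate number correlated at -0.016 to 0.067, so no shared effect of the numbers was seen. With 3 arrays a group this cannot exclude a pairing, and the labels do not state one. With the replicate number as a block, Osr1 was called for CiCM against MEF (-2.21, limma adjusted p = 0.0332), which made 5 lower members, and no other member's call changed. Values under 6.58, such as those of Meox1 in CiCM, have little precision.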

Other observations

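Among 11 tested bHLH partners and Id inhibitors, 3 were lower in CiCM than in MEF and 1 was higher, where 12.2% and 11.6% of all genes were. Lower were Hand2 (-1.25), the E protein gene Tcf3 (-1.25) and Id3, just past the minimum difference, and higher was Bhlhe40 (1.07). With 32 added to the linear signals 1 was lower. In CM, Msc (4.09), a bHLH repressor, Hand2 (2.82) and Id1 (1.85) were higher than in MEF, and Id4 (-3.92), Tcf3 (-1.34) and Tcf12 (-1.20) were lower, 3 in each direction where 22.1% and 21.8% of all genes were called. Msc reached the line only in CM, so it had to differ there. Without CM replicate 1 the lower genes numbered 5 and the higher 4.

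Of 18 tested corepressors and stability factors of Snail and Zeb proteins, 3 were lower in CiCM, a share near the 12.2% of all genes called lower. They were the Polycomb methyltransferase gene Ezh2 (-1.66), the corepressor gene Ctbp2 (-1.55) and Usp27x (-1.23), whose product removes ubiquitin. Usp27x reached the line only in MEF, so its call against MEF could only be lower. In CM 6 were lower and 1 was higher, against 21.8% and 22.1%. Fbxw7, part of a ubiquitin ligase, was higher in CiCM by 2.44 and in CM by 2.03. Kdm1a, which encodes the LSD1 enzyme that Snail recruits and Parnate inhibits, differed by -0.33 in CiCM and was not called, and was lower in CM by -1.16.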
